A study of Rattus norvegicus with 18 samples.

Results

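Rat XENP cells from female WKY blastocysts, called pXEN cells in the titles, were brought into a vacuolated state by 3 culture routes, and the RNA of these cultures was compared with that of normal cells. The 12 libraries described here, chosen by their titles, were 9 vacuolated and 3 normal ones of the 18 in the series. Normal cells were kept in routine culture at passages 37, 40 and 51. The first route added 0.5 µM CHIR99021, an inhibitor of the kinase GSK3 that activates Wnt signalling, to routine culture without sorting (3 libraries, passages 37, 41 and 51). The second route added 14% BCS, an abbreviation that the labels do not spell out, also without sorting (3 libraries, passages 41, 32 and 42). The third route was CHIR99021 with sorting (3 libraries, passages 35, 38 and 49), and the sort criterion is not given. The sorted route is taken to have the same 0.5 µM dose, since the culture text gives no other for vacuolated cells. The 6 remaining libraries were vesicles grown with CHIR99021, with or without serum. The serum-free vesicles had 3 µM CHIR99021, and no dose is recorded here for the serum vesicles. The vesicle libraries entered no contrast, but took part in the filter on low counts and in the model's estimate of spread. The design text says that the 3 samples of each condition were prepared independently. All came from the same rat strain and cell type, and whether they trace to 1 clone is not given. The p-values therefore measure the spread between these cultures.

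XEN cells are lines of the extraembryonic endoderm, the lineage of the blastocyst that forms the yolk sac. GATA and SOX factors set this lineage up, and its cells go on to parietal endoderm, which lays down a thick basement membrane, or to visceral endoderm, an absorptive epithelium. Vacuoles are large fluid-filled compartments, and in visceral endoderm they form part of the endosomal and lysosomal route by which nutrients are taken up.

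Total gene counts of the 12 libraries ran from 4080629 in a normal to 12074939 in a sorted library. The 2 most abundant gene models, which carry placeholder symbols, took 37.6 to 43.6% of the counts in normal libraries, 44.3 to 52.2% in the CHIR99021 route, 45.2 to 49.3% in the BCS route and 45.8 to 53.4% in the sorted route. That left 2544688 to 3320217 counts for all other genes in normal libraries against 2973963 to 6541182 in vacuolated ones. Mitochondrially encoded genes took 3.13 to 3.38% of these remaining counts in normal libraries, 2.88 to 4.08% with CHIR99021, 3.29 to 4.32% with BCS and 6.76 to 8.91% after sorting. In a principal component analysis of the 12 libraries, BCS replicate 2 lay apart from the other BCS libraries, at 14.7 on the first axis (26.6% of variance) against 42.4 and 31.2. Normal replicate 2 lay apart from the other normal libraries on this axis, at -44.2 against -28.3 and -28.6.

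Markers of the extraembryonic endoderm were abundant in every library. The summed level of 12 such markers ran from 5998 to 6533 CPM (gene counts scaled to the effective size of each library) in normal cells, 5947 to 7175 with CHIR99021, 7765 to 10140 with BCS and 7806 to 10417 after sorting, and none was at 0. Markers of other cell types were low. The 12 trophoblast markers summed to 11.1 to 12.9 CPM in normal cells and 5.19 to 9.19 CPM in vacuolated ones, with Hand1, Gcm1 and Prl3d1 at 0 in all 4 groups. The 9 fibroblast markers summed to 1.06 to 12.7 CPM in normal and 1.10 to 10.2 CPM in vacuolated cells (Dcn and Postn at 0). The 8 epiblast markers reached at most 7.12 CPM (Nanog and Sox2 at 0), the 9 blood markers at most 4.61 CPM (Hbb and Hba-a2 at 0), and the 7 markers of definitive endoderm and mesoderm at most 0.86 CPM (Mixl1 and Mesp1 at 0).

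The average of the 3 routes, each with equal weight, was compared with normal cells. Of 11503 genes tested, 1212 were higher (10.5%) and 1058 lower (9.20%) in vacuolated cells (edgeR quasi-likelihood test, adjusted p under 0.05), 2270 in all (19.7%). Of these, 507 differed more than 2-fold. The 9 vacuolated libraries lay entirely above or below the 3 normal ones for 1202 of the 2270, against 12.2% of all tested genes. The average hid unequal routes for many genes. Of the 2270, 391 passed with the same sign in each of the 3 routes, 2 passed in all 3 with mixed signs, 1051 passed in 2 routes, 777 in 1 and 49 in none, and 119 did not have the same sign in every route. Leaving out a normal library lowered the 2270 to 1399 (replicate 1), 1183 (replicate 2) or 1419 (replicate 3). Taken alone, the CHIR99021 route had 876 calls (7.62%), 4.49% of tested genes higher and 3.13% lower. The BCS route had 2383 (20.7%), 11.2% higher and 9.51% lower, and the sorted route 2974 (25.9%), 14.4% higher and 11.5% lower. The 3 route comparisons share the 3 normal libraries, and 2 of the routes share the inhibitor, so a gene called in all 3 has not been called 3 independent times. In unsorted cultures the share of vacuolated cells is not given. In bulk RNA a change in the number of cells of a type and a change in RNA per cell cannot be told apart.

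Common to the 3 routes were 391 genes (3.40% of those tested), 268 higher (2.33%) and 123 lower (1.07%) in each route. The count was 228 without normal replicate 2, 251 without normal replicate 3 and 260 without CHIR99021 replicate 1, and a fit to the 12 libraries alone gave 591. The genes that rose include keratins and junction proteins, enzymes of glycolysis and other genes that low oxygen is known to induce, lysosomal proteases, and regulators of growth such as Ddit4. Those that fell include the secreted Wnt antagonist Sfrp1, the pluripotency factor Pou5f1, the intermediate filament gene Vim and the interferon-induced genes Ifitm1 and Parp14. The shared higher genes had a median average fold of 2.06 and a median smallest route fold of 1.73. The shared lower genes fell by a median of 1.75-fold on average and 1.58-fold in their smallest route. In all 3 routes 84 genes were more than 2-fold higher and 14 more than 4-fold higher, and 26 were more than 2-fold lower and 4 more than 4-fold lower. The 9 vacuolated libraries did not overlap the 3 normal ones for 266 of the 268 higher genes (6.09% of all tested genes lay above in this way) and for 121 of the 123 lower ones (6.11% lay below). Their median mean log2 CPM was 4.87 (higher) and 4.78 (lower) against 3.86 over all tested genes. Some were scarce, down to -0.56 (higher) and -0.44 (lower). Just inside the rule were AY172581.2 and Chmp1a (largest route adjusted p 0.0499) and Glb1 (0.0496), and just outside Mccc2 and Ncstn (0.0505) and Fam213b (0.0511).

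The genes described next are the 12 higher and 12 lower shared ones with the largest effect in their weakest route, by a rule given with the processing. Among them, the 250 bases before the start site are printed for those of the first 3 in each direction that RefSeq's promoter table (GRCr8) holds, to show what sequence lies in front of the first genes by this rule. Capitals mark matches, on either strand, to ACGTG (the core of a hypoxia response element), CACGTG (an E-box, which contains that core), AGATAA, which factors of the GATA family bind, or ATCAAAG, which TCF factors bind. The coordinates are chr5:160918960-160919209 on the minus strand for Pdpn, chr10:13215558-13215807 on the plus strand for Cldn6, chr4:143174200-143174449 on the plus strand for Bhlhe40, chr4:125878420-125878669 on the minus strand for Grip2 and chr10:60874588-60874837 on the plus strand for Slc43a2. Sfrp1 is the remaining gene.
Pdpn: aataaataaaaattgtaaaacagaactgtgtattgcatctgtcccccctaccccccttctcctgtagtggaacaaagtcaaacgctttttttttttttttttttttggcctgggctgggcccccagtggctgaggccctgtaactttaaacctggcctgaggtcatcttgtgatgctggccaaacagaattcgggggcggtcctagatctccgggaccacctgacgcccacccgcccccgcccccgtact
Cldn6: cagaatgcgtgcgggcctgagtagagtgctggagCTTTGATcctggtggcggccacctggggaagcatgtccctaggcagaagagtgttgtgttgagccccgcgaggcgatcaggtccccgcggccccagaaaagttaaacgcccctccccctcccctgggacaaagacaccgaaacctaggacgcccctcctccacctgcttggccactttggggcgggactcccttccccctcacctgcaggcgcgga
Bhlhe40: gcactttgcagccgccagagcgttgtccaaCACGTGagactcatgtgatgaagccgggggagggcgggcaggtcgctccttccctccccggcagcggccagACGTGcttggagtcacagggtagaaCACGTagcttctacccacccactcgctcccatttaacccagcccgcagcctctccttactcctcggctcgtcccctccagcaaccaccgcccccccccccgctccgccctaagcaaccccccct
Grip2: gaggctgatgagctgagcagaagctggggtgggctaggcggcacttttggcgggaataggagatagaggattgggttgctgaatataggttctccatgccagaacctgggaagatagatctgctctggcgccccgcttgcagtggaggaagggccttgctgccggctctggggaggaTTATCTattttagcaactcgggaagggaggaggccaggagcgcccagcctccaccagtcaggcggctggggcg
Slc43a2: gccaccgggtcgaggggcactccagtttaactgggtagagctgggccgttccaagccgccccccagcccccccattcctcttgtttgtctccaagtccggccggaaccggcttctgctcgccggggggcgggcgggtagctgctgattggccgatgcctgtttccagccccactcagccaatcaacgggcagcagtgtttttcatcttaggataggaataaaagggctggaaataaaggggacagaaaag
Bhlhe40 holds 4 matches to ACGTG counted over both strands, some of them within its 1 E-box, Cldn6 holds 1 TCF match and Grip2 1 GATA match. Over all 27457 promoters of this length in the table, 16.9% hold ACGTG, 5.79% CACGTG, 10.0% AGATAA and 3.18% ATCAAAG. Promoters were found for 216 of the 268 shared higher genes, and ACGTG lay in 21.3% of them, against 22.9% of the 8520 promoters found for tested genes. For the 99 matched shared lower genes it was 25.3%. CACGTG lay in 9.26% of the higher and 9.09% of the lower genes' promoters (8.36% of tested genes), AGATAA in 5.56% and 6.06% (5.35%), and ATCAAAG in 3.70% and 3.03% (1.95%). A match is a run of letters and says nothing of whether a factor binds there.

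Epithelial genes were among the 12 leading shared higher genes. Cldn6, a claudin of tight junctions, measured 18.7, 13.2 and 14.4 CPM in the 3 normal libraries and 69.2 to 102 CPM (median 79.8) in the 9 vacuolated ones. Every vacuolated library was far above every normal one. The fold was 4.58 with CHIR99021, 5.62 with BCS and 5.81 after sorting (average log2 fold change 2.41 ± 0.15 SE, adjusted p = 7.07e-11), and the routes did not differ by test (adjusted p = 0.154). Krt8 and Krt18, the keratin pair of simple epithelia, rose together. Krt8 measured 120, 134 and 95.7 CPM in normal cells and 272 to 515 CPM (median 451) in vacuolated cells, an average log2 fold change of 1.84 ± 0.15 (adjusted p = 1.62e-08). Krt18 measured 80.2, 64.3 and 56.6 CPM in normal cells and 179 to 312 CPM (median 257) in vacuolated cells (1.90 ± 0.15, adjusted p = 9.77e-09). For this keratin pair the CHIR99021 route had the largest folds, 4.19 for Krt8 and 4.25 for Krt18, and the route difference did not pass (adjusted p = 0.181 and 0.205). Cdh1, which encodes E-cadherin, measured 11.3, 4.03 and 8.63 CPM in normal cells and 20.7 to 34.1 CPM (median 28.3) in vacuolated cells, with folds of 3.08, 3.51 and 3.87 in the CHIR99021, BCS and sorted routes (1.80 ± 0.21, adjusted p = 3.00e-06). No library overlapped between the groups for any of these 4 genes, which the rule for the leading genes requires.

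Of 31 tested genes of epithelial junctions, keratins and polarity, 17 were higher and 0 lower on the average of the routes by edgeR (18 and 0 by DESeq2, 19 and 0 at an unadjusted p under 0.05). The edgeR higher count was 14 without normal replicate 1 or 2 and 13 without normal replicate 3. Over all genes 10.5% were higher and 9.20% lower by edgeR. In every route 7 were higher (Cdh1, Cldn6, Dsc2, Jup, Krt18, Krt8 and Tjp1), against 2.33% of all genes. Without normal replicate 2 or CHIR99021 replicate 1 that count was 5. The median average log2 fold change of the list was 0.73, against -0.0037 over all tested genes. Dsc2 (desmocollin 2) rose by 1.16 on the log2 scale, Jup (plakoglobin) by 1.17 and the tight junction scaffold Tjp1 by 0.60. Vim (vimentin), an intermediate filament gene of mesenchymal and parietal endoderm cells, went the other way. It measured 121, 94.4 and 109 CPM in normal cells and 39.3 to 73.8 CPM (median 56.9) in vacuolated cells (-0.97 ± 0.14, adjusted p = 5.11e-05). The other mesenchymal genes did not follow Vim. Of 5 tested, Fn1 (1.23), Snai1 (0.82) and Tagln (1.31) were higher on the average of the routes (10.5% of all genes) and none of them in every route. Without normal replicate 3 none of the 3 passed, and 1 passed without normal replicate 2, CHIR99021 replicate 2 or sorted replicate 3.

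Pdpn, podoplanin, is a mucin-like membrane glycoprotein that binds the actin linker ezrin, and among shared genes at or above 3 in mean log2 CPM it had the largest effect in its weakest route. It measured 5.92, 6.14 and 3.33 CPM in normal cells and 19.9 to 38.8 CPM (median 30.4) in vacuolated cells. Its folds were 5.89, 6.04 and 5.67 in the CHIR99021, BCS and sorted routes, among the closest of the large changes (2.55 ± 0.34, adjusted p = 6.78e-05, route difference adjusted p = 0.971). Plod1, a lysyl hydroxylase that modifies collagen, measured 79.3, 52.6 and 72.2 CPM in normal cells and 173 to 331 CPM (median 259) in vacuolated ones (1.89 ± 0.17, adjusted p = 6.19e-08). Notch1, the signalling receptor, measured 5.74, 3.45 and 8.17 CPM against 12.4 to 40.8 CPM (median 18.5; 1.88 ± 0.32, adjusted p = 3.28e-04). Its mean was highest after sorting, but BCS replicate 1 (23.9 CPM) lay above sorted replicate 1 (21.9 CPM). The route difference did not pass (adjusted p = 0.0539). The Notch1 call in every route was lost when any of 4 libraries was left out (normal replicates 1 and 2, CHIR99021 replicates 1 and 3), with a largest route adjusted p of 0.0575 to 0.0807.

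**Figure D1:**
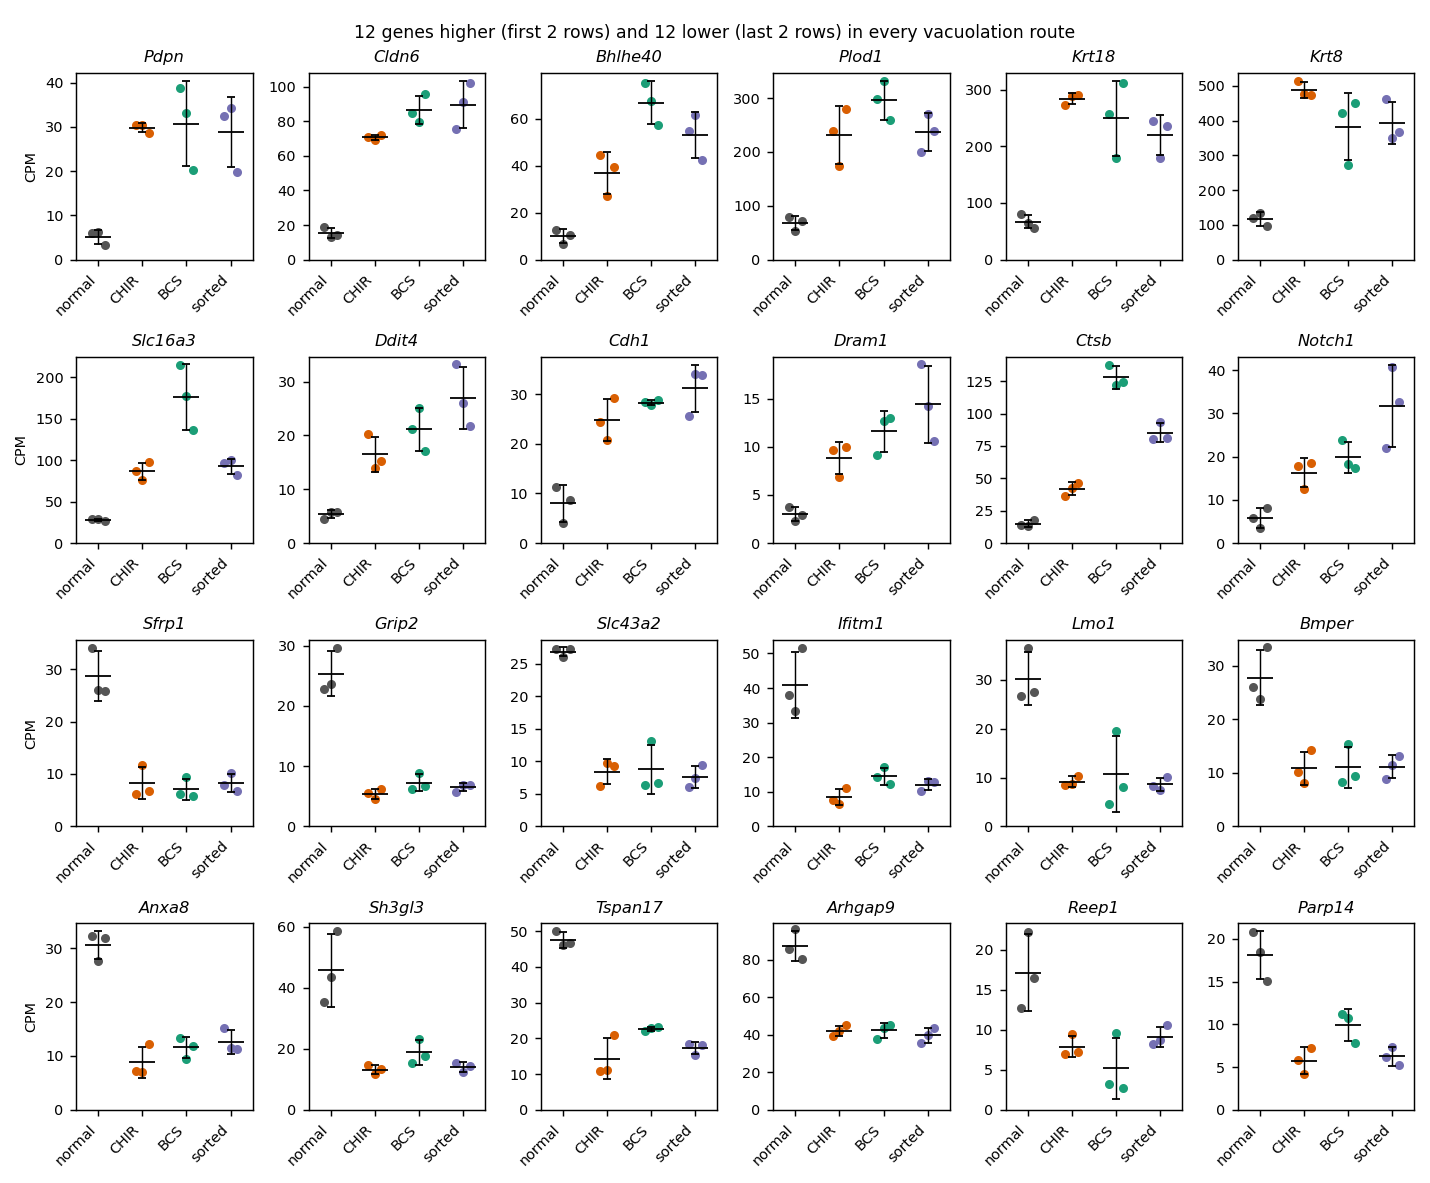
CPM (y axis, from 0) of the 24 leading shared genes in each library, by group (x axis: normal, CHIR99021, BCS and sorted CHIR99021). Points are libraries, horizontal bars group means and error bars 1 SD (n = 3). By the rule that chose these genes, the 9 vacuolated points lie all above (first 2 rows) or all below (last 2 rows) the 3 normal ones.

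Genes known to respond to low oxygen, with the glycolytic enzymes, gave the largest share of members called in every route among the lists. Of 34 tested, 19 were higher and 0 lower on the average by edgeR (10.5% and 9.20% of all genes), 21 and 0 by DESeq2, and 24 and 0 at an unadjusted p under 0.05. In every route 13 were higher (2.33% of all genes), and 8 without normal replicate 2. The median average log2 fold change was 0.71. The 13 were Aldoa, Bhlhe40, Bnip3, Ddit4, Eno1, Gpi, Hk1, Mxi1, Ndrg1, Pgam1, Pkm, Slc16a3 and Vegfa. Ndrg1, a gene induced under low oxygen, had the largest fold of them. It measured 0.897, 1.34 and 1.21 CPM in normal cells and 7.76 to 20.5 CPM (median 14.9) in vacuolated cells, with folds of 8.04, 13.2 and 15.2 in the CHIR99021, BCS and sorted routes (3.55 ± 0.29, adjusted p = 9.18e-09). Bhlhe40, a transcriptional repressor whose promoter is printed above, measured 12.7, 6.72 and 10.6 CPM against 26.9 to 75.5 CPM (median 55.0), with folds of 3.67, 6.62 and 5.25 (2.33 ± 0.19, adjusted p = 1.14e-08). Slc16a3, the lactate exporter MCT4, measured 28.7, 29.0 and 26.0 CPM in normal cells and 76.6 to 215 CPM (median 97.2) in vacuolated cells. Its fold was 6.30 with BCS, against 3.12 with CHIR99021 and 3.32 after sorting (2.01 ± 0.21, adjusted p = 1.85e-06, route difference adjusted p = 0.00187). Ddit4, an inhibitor of mTORC1, measured 4.49, 5.76 and 5.75 CPM against 14.0 to 33.2 CPM (median 21.2), with the largest fold, 5.03, after sorting (1.98 ± 0.20, adjusted p = 2.67e-07).

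The glycolytic enzymes called in every route rose by smaller folds. Others that were tested, among them Pgk1, Ldha and Gapdh, were not called in every route. Hk1 (hexokinase) was 2.36-fold higher on the average of the routes, Gpi 1.94-fold, Aldoa 3.29-fold, Pgam1 1.66-fold, Eno1 1.68-fold and Pkm (pyruvate kinase) 1.41-fold. Aldoa measured 73.2, 55.6 and 62.4 CPM in normal cells and 137 to 288 CPM (median 225) in vacuolated cells, and its fold was 2.21 with CHIR99021, 3.86 with BCS and 4.15 after sorting (1.72 ± 0.13, adjusted p = 1.44e-09). Pkm, at 790, 880 and 792 CPM in normal cells and 1016 to 1365 CPM in vacuolated cells, had its smallest fold after sorting (1.28). Vegfa, the vascular growth factor, measured 16.5, 14.2 and 11.5 CPM against 19.7 to 48.2 CPM (1.02 ± 0.17, adjusted p = 1.70e-04), and Bnip3, a mitophagy receptor, 8.25, 7.29 and 8.02 CPM against 11.4 to 37.8 CPM (1.39 ± 0.22, adjusted p = 8.75e-05). For each of the 13 genes the 9 vacuolated libraries lay above the 3 normal ones, as for 266 of the 268 shared higher genes (6.09% of all tested genes). A call in every route largely brings this with it.

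**Figure D2:**
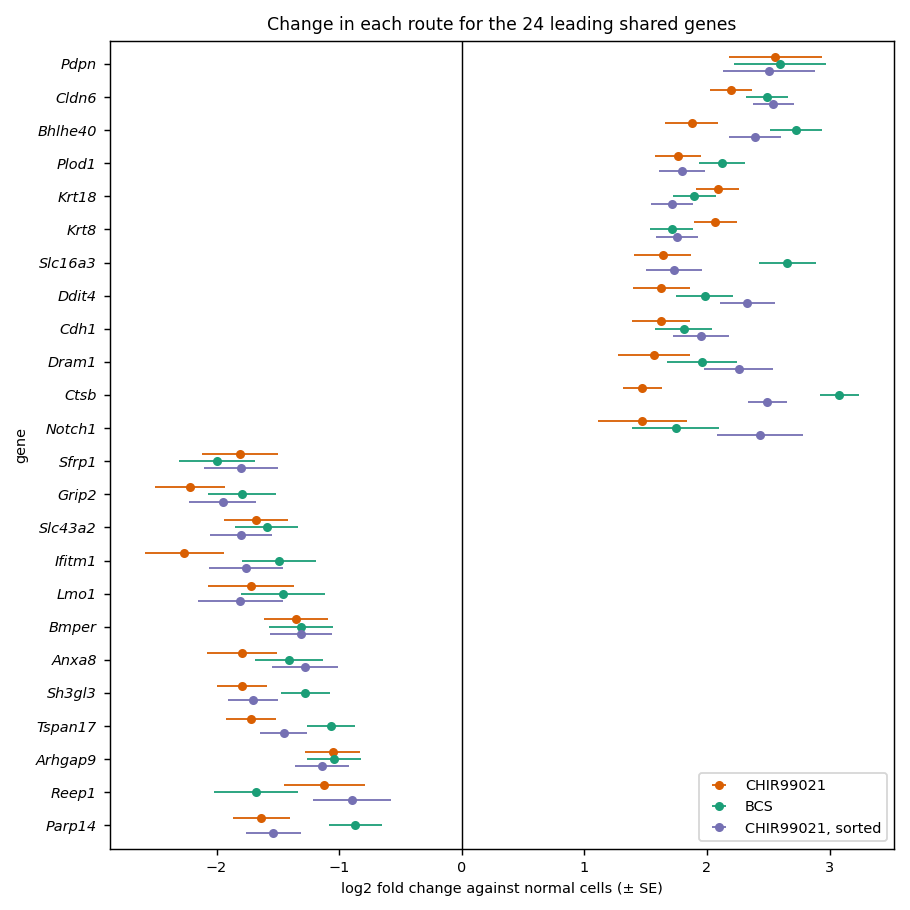
Log2 fold change against normal cells (x axis, ± SE from the model) of the 24 leading shared genes (y axis), with 1 colour for each route. Pdpn, Sfrp1 and Bmper have nearly equal changes in the 3 routes, and Ctsb and Slc16a3 lie farthest out with BCS.

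Lysosomal genes moved in part. Of 37 tested genes for lysosomal enzymes and membrane proteins, 12 were higher and 1 lower on the average (10.5% and 9.20% of all genes). Ctsb, Ctsd, Glb1 and Npc1 were higher in every route (2.33% of all genes). Without any 1 of the 3 normal libraries, or without CHIR99021 replicate 1 or 3, 2 lysosomal genes were higher in every route. The list's median was 0.13, and 27 of the 37 differed between routes by test (25.5% of all genes). Ctsb, the cysteine protease cathepsin B, measured 13.8, 13.2 and 18 CPM in normal cells, 36.5, 42.6 and 46.7 CPM with CHIR99021, 138, 122 and 124 CPM with BCS, and 80.5, 93.6 and 81.3 CPM after sorting. The 4 groups did not overlap, and the folds were 2.77, 8.45 and 5.63 (2.35 ± 0.14, adjusted p = 5.16e-11, route difference adjusted p = 6.78e-08). Ctsd, an aspartic protease, had even folds of 2.02, 2.20 and 2.04 (1.06 ± 0.23, adjusted p = 0.00368), and Npc1, which exports cholesterol from lysosomes, folds of 1.68, 2.11 and 2.09 (0.96 ± 0.14, adjusted p = 2.83e-05). Dram1, a lysosomal membrane protein that p53 induces, measured 3.77, 2.30 and 2.88 CPM in normal cells and 6.90 to 18.6 CPM (median 10.6) in vacuolated cells (1.93 ± 0.26, adjusted p = 9.02e-06). Grn (progranulin) was called on the average (2.53 ± 0.43, adjusted p = 7.24e-04) and not in every route. Its lowest vacuolated library, at 2.93 CPM, lay below normal replicate 3 (3.63 CPM) and just above normal replicate 1 (2.87 CPM).

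None of 16 tested subunits of the vacuolar ATPase, the proton pump of lysosomes, passed in either direction by edgeR on the average of the routes, and the median was -0.09. Of 37 genes of endocytosis, endosomes and phosphoinositides, 5 were higher and 2 lower on the average and none in every route, shares near the 10.5% and 9.20% of all genes. The higher count was 2 without normal replicate 2 and 3 without normal replicate 3. Lrp2 (megalin), the endocytic receptor of absorptive epithelia, was the highest of these at 1.60 (adjusted p = 0.0164). Of 23 autophagy genes, 2 were higher and 2 lower on the average, also near the shares over all genes, and none in every route. Without any 1 of the 3 normal libraries 0 autophagy genes were higher by edgeR (2 by DESeq2 on all libraries, and 2 at an unadjusted p under 0.05). At an unadjusted p under 0.05, 2 ATPase genes were higher and 3 lower, and DESeq2 called 1 higher. DESeq2 called 1 endocytosis gene and no autophagy gene in every route.

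Of 25 genes of water, ion and fluid transport, 4 were higher and 0 lower on the average by edgeR (5 and 0 by DESeq2, 7 and 1 at an unadjusted p under 0.05). Over all genes 10.5% were higher and 9.20% lower by edgeR. Car4 and Clcn5 were higher in every route (2.33% of all genes). Car4, a membrane-anchored carbonic anhydrase, had 0 counts in the 3 normal libraries and 19, 40 and 25 in the CHIR99021, BCS and sorted groups. With normal cells set to a floor of 3 counts over the group, that was 5.44-, 10.2- and 4.78-fold higher. The lower 95% counting limits of the ratio to normal cells, without the floor, were 4.01, 7.93 and 3.61. Vldlr, a lipoprotein receptor on the list of the integrated stress response, also had 0 in normal cells against 30, 11 and 100 counts. With the same floor that was 8.59-, 2.81- and 19.1-fold higher, and the lower limits were 6.56, 1.92 and 15.3. Clcn5, a chloride-proton exchanger of endosomes, measured 59.6, 67.2 and 57.4 CPM against 81.7 to 135 CPM (0.87 ± 0.13, adjusted p = 4.45e-05). Of 15 genes of microvilli and cortical actin, 6 were higher and 1 lower on the average (10.5% and 9.20% of all genes), with 3 higher without normal replicate 3, and Eps8, an actin-capping protein, was the member higher in every route. Eps8 had 2 counts in normal cells and 37, 28 and 111 in the 3 routes, ratios of 15.9 (95% counting interval 4.10 to 136), 10.7 (2.70 to 92.9) and 31.9 (8.61 to 266). At such depths the size of the change is poorly known.

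**Figure D3:**
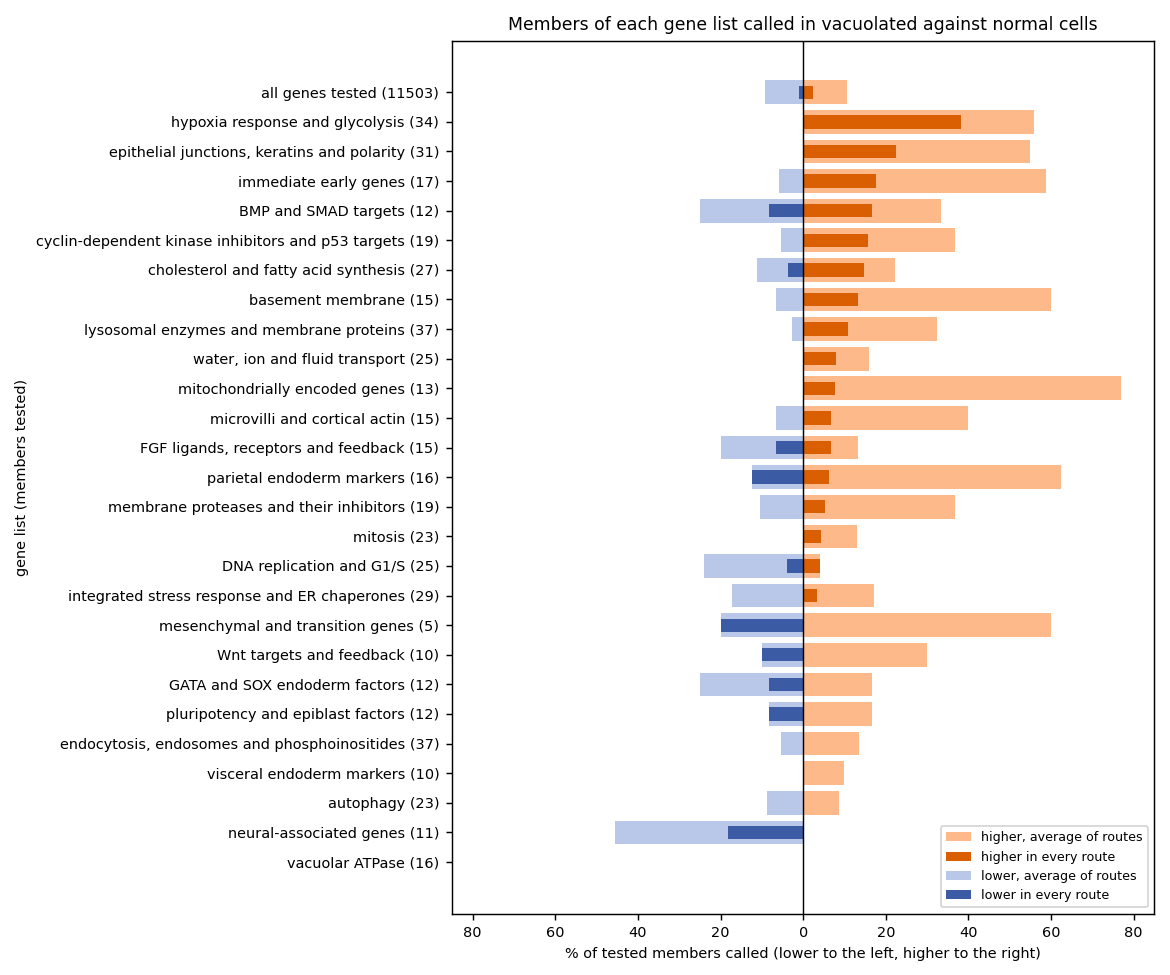
Share of tested members (x axis, percent) of each gene list (y axis, members tested in brackets) called higher (right) or lower (left) on the average of the routes (pale bars) and in every route (dark bars), with all tested genes in the first bar. The lists of hypoxia response and glycolysis and of epithelial genes have the longest dark bars to the right, and the vacuolar ATPase has none.

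Signalling genes gave shared members in both directions. Sfrp1, a secreted antagonist of Wnt ligands, had the largest effect in its weakest route among the lower genes past the same level of abundance. It measured 34.1, 26.1 and 25.9 CPM in normal cells and 5.83 to 11.7 CPM (median 6.83) in vacuolated cells, so that each route fell by a similar fold, 3.51, 3.99 and 3.48 (-1.87 ± 0.23, adjusted p = 4.14e-06, route difference adjusted p = 0.858). Bmper, which binds BMP ligands outside the cell, fell 2.55-, 2.48- and 2.48-fold, from 26.0, 23.8 and 33.5 CPM to 8.11 to 15.4 CPM (-1.32 ± 0.20, adjusted p = 3.99e-05). Bambi, a pseudoreceptor for the same pathway and a Wnt target, fell from 12.7, 7.87 and 9.54 CPM to 2.71 to 4.97 CPM (-1.41 ± 0.27, adjusted p = 5.27e-04). The secreted BMP antagonist Nog (noggin) rose, from 2.15, 1.92 and 1.36 CPM to 3.93 to 9.45 CPM (1.76 ± 0.31, adjusted p = 2.84e-04), and so did Fst, described below. Of 12 BMP and SMAD genes, 4 were higher and 3 lower on the average (10.5% and 9.20% of all genes). Id3, a BMP target, was lower on the average, at 45.9, 58.9 and 42.7 CPM in normal and 9.68 to 33.5 CPM in vacuolated cells (-1.35 ± 0.24, adjusted p = 6.56e-04), and was not called in every route.

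Of 10 tested Wnt targets and feedback genes, 3 were higher and 1 lower on the average (10.5% and 9.20% of all genes). Bambi was the member called in every route. Axin2 and Lgr5, feedback targets of the pathway, had 0 CPM in the 3 normal libraries. Lgr5 measured 7.57, 7.07 and 5.47 CPM with CHIR99021, 0, 0.220 and 0.388 with BCS, and 4.84, 3.13 and 2.84 after sorting. Axin2 measured 1.54, 1.72 and 1.64 CPM with CHIR99021, 0.339, 0 and 0.518 with BCS, and 1.15, 2.35 and 1.34 after sorting. The routes differed for Lgr5 (adjusted p = 4.42e-07). Of 15 FGF genes, 2 were higher and 3 lower on the average (10.5% and 9.20% of all genes). Il17rd (Sef), an inhibitor of FGF signalling, rose in every route (average 1.88 ± 0.28, adjusted p = 3.74e-05) and Spry2, another inhibitor, fell (average -0.53 ± 0.12, adjusted p = 0.00226). With replicate number as a block in the model, neither was called in every route. Of 17 immediate early genes, 10 were higher and 1 lower on the average (10.5% and 9.20% of all genes). Ctgf, Dusp1 and Klf6 were higher in every route (2.33% of all genes). Dusp1, a phosphatase of MAP kinases, measured 9.15, 12.1 and 9.23 CPM against 24.3 to 47.0 CPM (1.81 ± 0.25, adjusted p = 4.71e-05). Ctgf, a secreted matrix protein, rose 6.51-fold with BCS against 1.85-fold with CHIR99021 and 2.86-fold after sorting.

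Lineage factors that were called went in both directions. Pou5f1, the pluripotency factor OCT4 that these cells also express, measured 102, 119 and 133 CPM in normal cells and 33.3 to 74.8 CPM (median 40.2) in vacuolated cells. It fell in every route, 2.95-fold with CHIR99021, 1.63-fold with BCS and 3.08-fold after sorting, and the routes differed (-1.30 ± 0.15, adjusted p = 1.59e-06, route difference adjusted p = 0.00108). Of 12 pluripotency and epiblast genes, 2 were higher and 1 lower on the average (10.5% and 9.20% of all genes). Pou5f1 was the member called in every route. Of 12 GATA and SOX endoderm genes, 2 were higher and 3 lower on the average (10.5% and 9.20% of all genes). The forkhead factor Foxq1 was the member that fell in every route (-0.84 ± 0.14, adjusted p = 1.66e-04). Gata4 was lower on the average, 394, 462 and 376 CPM in normal and 255 to 369 CPM in vacuolated cells (-0.45 ± 0.12, adjusted p = 0.00836), and Sox7 was higher, 4.85, 2.69 and 3.94 against 6.22 to 11.9 CPM (1.05 ± 0.25, adjusted p = 0.00399). Neither passed in every route, and without normal replicate 2 the Gata4 average did not pass (adjusted p = 0.107). Sox17 (0.10, adjusted p = 0.628), Pdgfra (0.03, adjusted p = 0.912), Hnf4a (0.30, adjusted p = 0.288) and Foxa2 (0.35, adjusted p = 0.0698) did not pass on the average.

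Among 16 parietal endoderm markers, 10 were higher and 2 lower on the average (10.5% and 9.20% of all genes). The higher count was 7 without normal replicate 1 or 2 and 8 without normal replicate 3. But the members called in every route were Fst (higher, 2.33% of all genes) and Pth1r and Vim (lower, 1.07%). Pth1r, the parathyroid hormone receptor that marks this lineage, measured 303, 325 and 311 CPM against 147 to 234 CPM (-0.67 ± 0.10, adjusted p = 5.92e-05). Of 10 visceral endoderm markers 1 was higher on the average, near the 10.5% of all genes, and none in every route. Of 15 basement membrane genes, 9 were higher and 1 lower on the average (10.5% and 9.20% of all genes). The higher count was 8, 6 and 7 without normal replicates 1, 2 and 3. Lama5, a laminin chain (1.55 ± 0.26, adjusted p = 3.12e-04), and Fbln1 (0.63 ± 0.13, adjusted p = 0.00175) were higher in every route (2.33% of all genes). Of 19 membrane proteases and their inhibitors, 7 were higher and 2 lower on the average (10.5% and 9.20% of all genes), with Tmprss2 alone higher in every route.

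Of 11 tested neural-associated genes, 0 were higher and 5 lower on the average (10.5% and 9.20% of all genes), with a median of -0.88. Reep1 and Sh3gl3 were lower in every route (1.07% of all genes). Sh3gl3 (endophilin A3) binds curved membrane, and measured 35.2, 43.4 and 58.7 CPM in normal cells and 11.7 to 23.3 CPM (median 14.6) in vacuolated cells (-1.59 ± 0.15, adjusted p = 7.71e-08). Reep1, which shapes the endoplasmic reticulum, fell from 12.7, 22.3 and 16.5 CPM to 2.72 to 10.6 CPM (-1.23 ± 0.26, adjusted p = 0.00151). Its call in every route was lost without any of 8 libraries. The remaining leading lower genes have other roles. Grip2, a PDZ scaffold protein, fell from 22.8, 23.6 and 29.7 CPM to 4.48 to 8.81 CPM (median 6.28), 4.65-, 3.46- and 3.86-fold in the 3 routes (-1.99 ± 0.21, adjusted p = 2.67e-07). Slc43a2, an amino acid transporter, fell from 27.3, 26.1 and 27.2 CPM to 5.99 to 13.1 CPM (-1.69 ± 0.19, adjusted p = 1.20e-06). Ifitm1, an interferon-induced membrane protein, fell from 37.9, 33.4 and 51.6 CPM to 6.55 to 17.1 CPM (-1.84 ± 0.23, adjusted p = 9.85e-06). Lmo1, Anxa8, Tspan17, Arhgap9 and Parp14 fell by 1.66, 1.49, 1.41, 1.08 and 1.35 on the log2 scale. In Lmo1 the highest vacuolated library was BCS replicate 2 at 19.5 CPM, against 26.7 CPM in the lowest normal one. The rule for the leading genes admits no overlap.

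Of 19 cyclin-dependent kinase inhibitors and p53 targets, 7 were higher and 1 lower on the average (10.5% and 9.20% of all genes). Cdkn1a, Cdkn1b and Pmaip1 were higher in every route (2.33% of all genes). Cdkn1a (p21) had nearly equal folds of 1.92, 1.91 and 1.84, from 36.6, 46.8 and 35.1 CPM to 64.3 to 95.2 CPM (0.92 ± 0.17, adjusted p = 7.42e-04). Pmaip1 (NOXA), a pro-apoptotic p53 target, rose by 1.57 ± 0.25. Cdkn1c was lower on the average (-1.39 ± 0.25, adjusted p = 0.00112), and its highest vacuolated library, 110 CPM, overlapped normal cells at 107, 132 and 104 CPM. Of 25 genes of DNA replication and G1/S, 1 was higher and 6 lower on the average (10.5% and 9.20% of all genes), with 2 lower without normal replicate 2. In every route Uhrf1, a reader of hemimethylated DNA, rose (1.41 ± 0.15, adjusted p = 8.04e-07) while Ccne1 (cyclin E1) fell (-0.71 ± 0.13, adjusted p = 3.11e-04). Of 23 mitosis genes 3 were higher and 0 lower by edgeR, near the 10.5% of all genes for the higher ones (3 and 0 by DESeq2, 6 and 2 at an unadjusted p under 0.05), with Cdc20, the activator of the anaphase-promoting complex, higher in every route (0.95 ± 0.11, adjusted p = 1.00e-06). Of 27 genes of cholesterol and fatty acid synthesis, 6 were higher and 3 lower on the average (10.5% and 9.20% of all genes). Fasn (fatty acid synthase), Insig1 and Srebf1 were among the 4 that rose in every route (2.33% of all genes), and Stard4 fell (1.07%). Without normal replicate 1 or 3 or CHIR99021 replicate 1 or 3, 2 rose in every route. Fasn measured 231, 185 and 223 CPM in normal cells and 285 to 874 CPM (median 483) in vacuolated cells, with its largest fold, 3.85, with BCS (1.26 ± 0.15, adjusted p = 4.22e-06). Of 29 genes of the integrated stress response and ER chaperones, 5 were higher and 5 lower on the average (10.5% and 9.20% of all genes). Without normal replicate 2 these counts were 2 and 0. The higher count was 3 without normal replicate 1 or 3. The lower count was 2 without normal replicate 1, and 3 without CHIR99021 replicate 1 or 3, BCS replicate 1, or sorted replicate 2 or 3.

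The shared set was not uniform in size across routes. A test of the difference between the 3 vacuolated groups, which uses no normal library, passed for 139 of the 391 shared genes (35.5%), against 25.5% of all tested genes. Among the shared higher genes 115 of 268 passed (42.9%) and among the lower 24 of 123 (19.5%). For the higher genes the largest fold was with BCS in 114, after sorting in 112 and with CHIR99021 in 42, and the median folds were 2.15, 2.13 and 1.87. For the lower genes it was after sorting in 49, with CHIR99021 in 44 and with BCS in 30, and the median folds were 1.81, 1.70 and 1.70. The largest and smallest route log2 fold changes lay less than 0.5 apart in 141 of the higher genes (median gap 0.48) and in 93 of the lower (median gap 0.31).

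**Figure D4:**
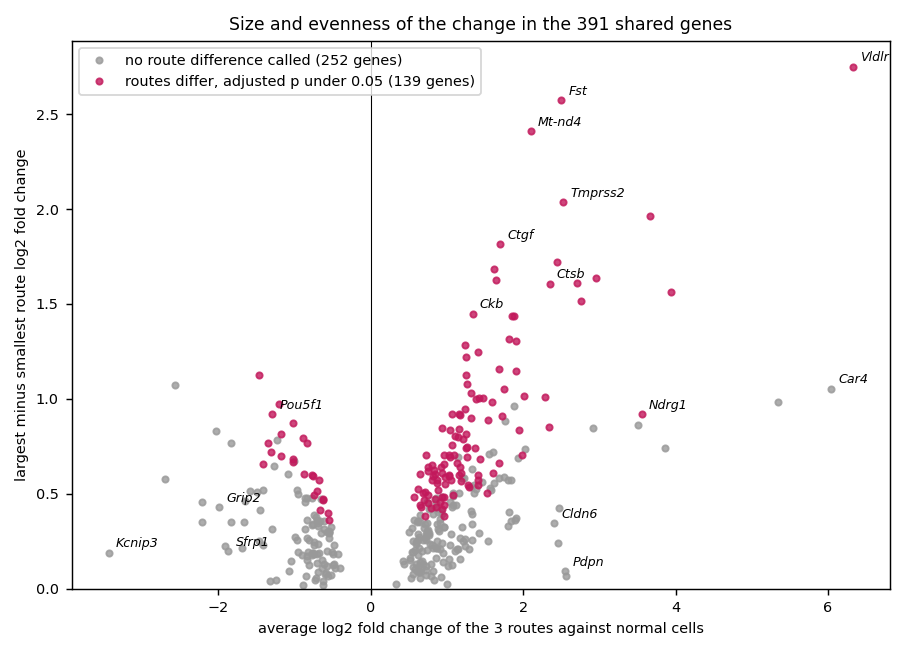
Gap between the largest and smallest route log2 fold change (y axis) against the average log2 fold change (x axis) for the 391 shared genes, coloured by the test of route difference (139 passed). Pdpn, Cldn6, Sfrp1 and Grip2 have large changes and small gaps and Fst, Mt-nd4 and Tmprss2 large gaps, while the fitted positions of Vldlr and Car4, which had 0 counts in normal cells, are not exact sizes.

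Fst, Tmprss2, Ctsb, Mt-nd4, Ckb and Pdlim1 had the smallest p of route difference among the shared genes. Fst (follistatin), a secreted antagonist of activin, measured 3.05, 1.54 and 1.21 CPM in normal cells, 13.0, 12.8 and 12.2 with CHIR99021, 3.39, 4.51 and 4.27 with BCS, and 24.5, 22.5 and 26.4 after sorting (2.50 ± 0.23, adjusted p = 3.56e-08, route difference adjusted p = 1.31e-08). Both CHIR99021 routes lay well above BCS, and the lowest BCS library stood just above the highest normal one. Without normal replicate 3 the Fst call in every route was lost (largest route adjusted p 0.0662). Tmprss2, a membrane serine protease, had the same order, with 0.538, 0.768 and 1.21 CPM in normal cells, 7.29, 6.21 and 9.02 with CHIR99021, 2.04, 2.20 and 1.81 with BCS, and 10.1, 6.15 and 8.76 after sorting (2.53 ± 0.28, adjusted p = 6.74e-07). Its call in every route was lost without normal replicate 1, normal replicate 2 or BCS replicate 2 (0.0533 to 0.107). Ckb (brain-type creatine kinase) was highest after sorting, 28.0, 23.4 and 29.2 CPM in normal cells, 52.0, 52.4 and 51.4 with CHIR99021, 41.2, 56.6 and 43.0 with BCS and 114, 139 and 133 after sorting. Pdlim1, which binds actin cross-linkers, rose from 7.90, 8.83 and 8.48 CPM to 18.3 to 46.4 CPM (1.74 ± 0.14, adjusted p = 6.71e-09), and its sorted libraries were also highest.

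Mt-nd4, a mitochondrially encoded subunit of complex I, measured 2.15, 3.07 and 4.84 CPM in normal cells, 10.8, 11.7 and 6.15 with CHIR99021, 7.29, 5.40 and 11.1 with BCS, and 44.5, 44.6 and 37.6 after sorting (average fold 4.28, adjusted p = 4.22e-06). Of 13 mitochondrially encoded genes, 10 were higher on the average (10.5% of all genes), Mt-nd4 alone was higher in every route, and 12 differed between routes (25.5% of all genes). The mitochondrial share of the counts moved with the sorted route, as given above. With library sizes that leave out the mitochondrial and the 2 most abundant genes, 394 genes were shared, against 391. Beyond this scaling, the part of the mitochondrial share in these results was not tested. Without BCS replicate 3 the Mt-nd4 call in every route was lost (0.0646).

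Some strong changes were outside the shared set because a route did not take part or went the other way. Gata2, a GATA factor of hematopoietic and trophoblast cells, measured 0.538, 0.576 and 0.303 CPM in normal cells, 11.9, 9.31 and 12.7 with CHIR99021, 0.678, 1.21 and 0.129 with BCS, and 10.9, 11 and 9.94 after sorting. The average (3.21 ± 0.41, adjusted p = 5.43e-06) thus stood for the inhibitor routes, and the BCS libraries overlapped normal cells. Fgf10 fell in the same routes, from 123, 114 and 139 CPM to 31.5, 35.5 and 37.9 with CHIR99021 and 60.8, 65.9 and 63.1 after sorting, and measured 128, 131 and 98.3 with BCS. Gata6, the factor that specifies this lineage, measured 75.6, 82.7 and 82.0 CPM in normal cells, 46.3, 50.4 and 51.1 with CHIR99021, 90.6, 81.9 and 80.3 with BCS and 97.5, 106 and 89.2 after sorting, so that its average did not pass (-0.11, adjusted p = 0.526) while the routes differed (adjusted p = 4.00e-05). In all, 66 genes were called higher in a route and lower in another. Slc25a3, the mitochondrial phosphate carrier, measured 98.9, 113 and 105 CPM in normal cells, 84.1, 73.6 and 88.8 with BCS, and 296, 257 and 345 after sorting. Rgs13, a regulator of G protein signalling, measured 3.23, 2.11 and 0.908 CPM in normal cells, 18.7, 11.1 and 19.4 with BCS, and 0.576, 0.894 and 0.552 after sorting. The others of the 6 with the smallest p of route difference were Hadhb, Khdrbs1, Fam102a and C1qbp.

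**Figure D5:**
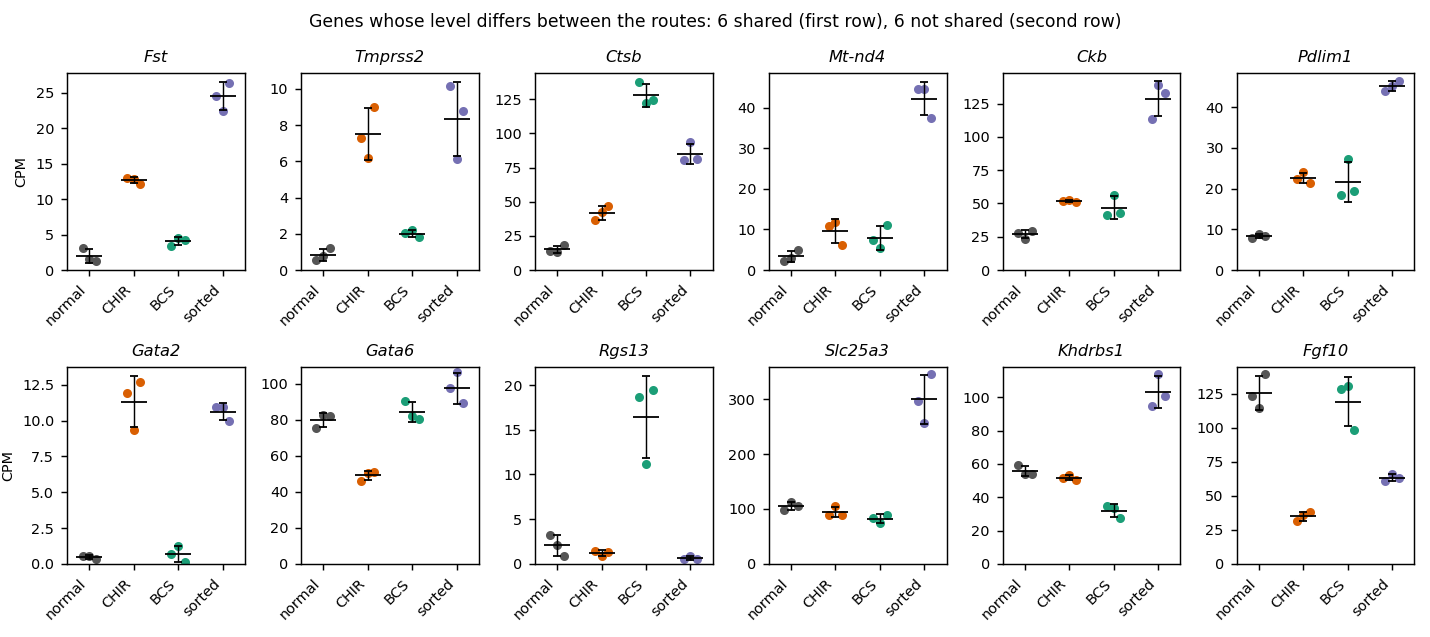
CPM (y axis, from 0) in each library by group (x axis) of 6 shared genes with unequal routes (first row) and 6 genes outside the shared set (second row). Points are libraries, bars means and error bars 1 SD (n = 3), and Gata2 is high in both CHIR99021 groups while its BCS points lie at the normal level.

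The shared calls rest on 3 normal libraries, and some depend on single libraries. Of the 59 shared genes named by rule, 37 stayed shared when any of the 12 libraries was left out. The 22 others lost the call in at least 1 route without at least 1 library. Il17rd and Spry2 lost it without any of 11 libraries, Glb1 and Reep1 without any of 8, Nog without any of 6, Vldlr, Insig1 and Cdkn1b without any of 5, and Notch1, Lama5 and Fbln1 without any of 4. Eps8, Tmprss2, Ctgf, Clcn5, Ccne1 and Foxq1 lost it without any of 3, Vim without normal replicate 1 or BCS replicate 3 (largest route adjusted p 0.0534 to 0.0672), Pou5f1 without normal replicate 3 (0.0666), and Bambi without normal replicate 1 (0.0572).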

How the data were processed

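Gene expression was measured by directional RNA sequencing of ribosomal-RNA-depleted RNA, per the labels' protocols. The deposited gene counts came from bcl2fastq, Trimmomatic 0.38 and STAR 2.6.1 on rn6, per the submitters' processing notes. Of the 3 count columns per library, the strand column with nearly all counts was used, and the opposite strand held 2.01 to 2.85% of them.

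edgeR 4.0.16, run in R 4.3.3, took the deposited counts as they were (filter at a minimum count of 10 by group, 11503 of 28695 genes, TMM scaling, robust quasi-likelihood fit of 6 group means to 18 libraries, 12 residual degrees of freedom, biological coefficient of variation 16.1%). CPM values are scaled by TMM. Contrasts were the equal-weight mean of 3 routes minus normal, each route minus normal, and an F test between the routes. P-values were adjusted over all genes (Benjamini-Hochberg, threshold 0.05). Shared genes passed with the same sign in each route. SE is the absolute log2 fold change divided by the square root of F. Counting intervals (95%) and floors cover counting error only. DESeq2 1.42.0 was an alternative, with other scalings, filters, counts, covariates and libraries left out. The code was tested on simulated data.

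The libraries, members and gene lists were chosen with earlier results of these data known. Named genes were the 12 higher and 12 lower shared genes with the largest effect in the weakest route (mean log2 CPM at least 3, no overlap of libraries, no placeholder symbol), the 6 shared and 6 oppositely called genes with the smallest p of route difference, up to 3 shared members of each list, and a fixed set. Other list members are examples. Some genes that the rules name are not reported here.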

Additional observations from a re-analysis of the deposited data

Results flagged for a closer look

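Of the 79 genes named by rule, 41 differed between the 3 vacuolated routes by the F test (adjusted p under 0.05), 26 of them shared genes and 15 not. The value given for each is the gap between its largest and smallest route log2 fold change.

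Among shared higher genes the gap was 2.75 for Vldlr, 2.57 for Fst, 2.41 for Mt-nd4, 2.04 for Tmprss2, 1.82 for Ctgf, 1.61 for Ctsb, 1.56 for Eps8, 1.45 for Ckb, 1.44 for Il17rd, 1.08 for Fasn, 1.05 for Pdlim1 and 1.02 for Slc16a3. Vldlr had 0 counts in normal cells and Eps8 had 2, so the gap of each is not an exact size. Smaller gaps were found for, among others, Ndrg1 (0.92), Aldoa (0.91), Bhlhe40 (0.85), Ddit4 (0.70), Klf6 (0.60), Uhrf1 (0.57), Clcn5 (0.55), Glb1 (0.51), Cdc20 (0.44) and Insig1 (0.38). The shared lower genes were Pou5f1 (0.92), Parp14 (0.76) and Tspan17 (0.65), each of which fell least with BCS.

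Outside the shared set the gap was 4.82 for Lgr5 and 2.54 for Axin2, both at 0 in normal cells, 4.58 for Rgs13, 3.99 for Gata2, 1.87 for Slc25a3, 1.81 for Grn, 1.77 for Fgf10, 1.70 for Khdrbs1, 1.57 for C1qbp, 1.44 for Hadhb, 1.32 for Fam102a, 1.28 for Cdkn1c, 0.99 for Gata6, 0.80 for Pdgfra and 0.66 for Hnf4a. The 6 genes named for opposite calls (Slc25a3, Rgs13, Hadhb, Khdrbs1, Fam102a and C1qbp) were chosen for this gap.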

How the results depend on the processing

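The average comparison (2270 genes), the shared set (391) and the route difference (2929) gave 2293, 392 and 2931 genes with DESeq2's size factors in edgeR, 2450, 444 and 3293 with DESeq2, 2260, 454 and 3082 without the count filter, 2265, 381 and 2972 with passage as a covariate, 2230, 384 and 2920 from unstranded counts, and 2295, 394 and 2931 with library sizes that leave out the 2 most abundant genes and the mitochondrial genes. At a threshold of 0.01 they were 1132, 184 and 1539. A fit to the 12 libraries alone gave 591 shared genes, 378 higher and 213 lower. With 2 routes in place of 3 the shared set held 1215 genes without the CHIR99021 route, 646 without the BCS route and 471 without the sorted route, as follows from asking for fewer calls. Leaving out 1 library gave 1183 (without normal replicate 2) to 2457 (without BCS replicate 2) genes on the average, 228 to 400 shared genes (the same 2 libraries) and 2113 to 3360 for the route difference. The average count was 1399 without normal replicate 1 and 1419 without normal replicate 3, and the shared count 251 without normal replicate 3 and 260 without CHIR99021 replicate 1. Of the 391 genes, 148 (113 higher, 35 lower) stayed shared in all settings that keep the 3 routes and the threshold. Of the named genes' average effects, Slc25a3 reversed, to -0.27 (adjusted p = 0.0995) from the unsorted routes alone, and Axin2 did not pass without normal replicate 3 (adjusted p = 0.0530).

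Replicate numbers did not pair the samples: over 18 pairs with the same number, correlations of deviations from the group means ran from -0.149 to 0.0746. With the replicate block the counts were 2157, 369 and 2777, and 355 of the 391 shared genes were kept. Total counts limit genes near 1 CPM, where a normal library holds only a few counts.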

Other observations

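The genes named here are among the 391 shared ones. They were picked after their values were seen, so they say nothing of their gene groups. Actb (beta-actin) measured 623, 606 and 602 CPM in normal cells and 877 to 1650 CPM (median 1396) in vacuolated cells, with a smaller fold with CHIR99021 (1.48) than with BCS (2.50) or after sorting (2.49). Tpm1 (tropomyosin 1) measured 31.6, 32.6 and 24.5 CPM against 63.2 to 125 CPM, a log2 fold change of 1.61 ± 0.14. Flna (filamin A), Actn4, Cnn2 and Iqgap1 rose by 0.64, 0.58, 1.04 and 0.67 on the log2 scale. Amotl2 and Frmd6, which act in the Hippo pathway, rose by 0.93 and 0.95.

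Psme1 and Psme2, subunits of a proteasome activator that interferon induces, fell by 0.64 and 0.84 on the log2 scale. Stat2, a transcription factor of the interferon response, went the other way, 2.38-fold higher on average, to 8.64 to 30.0 CPM (adjusted p = 8.33e-05). Sod1 (superoxide dismutase 1) fell from 308, 260 and 294 CPM to 140 to 207 CPM, Prdx2, a peroxiredoxin, by 0.63 on the log2 scale, and Gclc, the rate-limiting enzyme of glutathione synthesis, by 0.56.

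Epas1, which encodes the hypoxia-inducible factor HIF-2α, measured 128, 121 and 119 CPM in normal cells and 220 to 412 CPM in vacuolated cells (1.26 ± 0.16, adjusted p = 9.02e-06). Egln1, the prolyl hydroxylase that marks such factors for degradation, rose by 0.86.

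Kcnip3 had the most negative average log2 fold change of the shared genes. It measured 1.79, 3.26 and 3.33 CPM in normal cells and 0 to 0.561 CPM in vacuolated ones, with route folds of 10.8, 10.2 and 11.6 that rest on few counts.

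The vesicle libraries entered no contrast above, but took part in the filter and the estimate of spread. They are set beside the shared genes as levels only. Summed over the 268 shared higher genes, the level was 14365 to 15098 CPM in normal cells, 24360 to 29973 CPM in vacuolated cells, 29259 to 31101 CPM in serum vesicles and 33616 to 35469 CPM in serum-free vesicles. Single genes differed from this. Cdh1 had a mean of 219 CPM in serum and 224 CPM in serum-free vesicles, above every vacuolated library (at most 34.1 CPM), while Slc16a3 had means of 25.3 and 40.9 CPM, below them.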
